A study of Mus musculus with 6 samples.

Results

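The pyruvate dehydrogenase complex and its kinases were examined as 9 genes, Pdha1, Pdhb, Dlat, Dld, Pdhx, Pdk1, Pdk2, Pdk3 and Pdk4, taken as every probe set whose gene symbol was 1 of these names. The rule found 17 of the 45037 probe sets that were not array controls, 10 for the enzyme complex and 7 for the kinases, and every member had at least 1. RNA was measured on 6 Affymetrix mouse whole-genome arrays. The 3 Ctl arrays held freshly isolated cardiomyocytes (CMs) of adult bi-transgenic mice. The 3 CPC arrays held cells that the labels call cardiac progenitor cells, obtained from CMs of the same kind of mouse after prolonged culture in which they dedifferentiated and proliferated. Both groups thus came from bi-transgenic animals, whose transgenes, age and number the labels leave unnamed, and the groups differ in culture as well as in cell state. Cells were caught singly in a microfluidic device and their cDNA was amplified before labeling. Since the number of cells behind an array is not stated, fewer cells of a type and less RNA per cell cannot be told apart. Nothing says that the arrays of a group came from separate animals or cultures, so p-values measure the spread between these arrays, which may be technical.

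Pyruvate dehydrogenase converts pyruvate, the end product of glycolysis, into acetyl-CoA inside mitochondria and thereby joins glucose use to the tricarboxylic acid (TCA) cycle. Pdha1 and Pdhb encode the alpha and beta subunits of its decarboxylase (E1), Dlat the lipoyl-bearing acetyltransferase core (E2), Dld the dehydrogenase that reoxidizes the lipoyl groups (E3), and Pdhx the protein that fastens E3 to the core. Pyruvate dehydrogenase kinases phosphorylate the alpha subunit and switch the complex off, and dedicated phosphatases switch it back on. The adult heart draws most of its energy from fatty acids and holds the complex partly inactive, with Pdk4 known as the kinase induced by fasting and fatty acids.

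Most members were lower on the CPC arrays. Of the 17 probe sets, 9 were lower and 0 higher at an adjusted p under 0.05 (limma, Benjamini-Hochberg over all probe sets), where 4.38% of all probe sets were lower and 1.06% higher. At an unadjusted p under 0.05, 14 were lower and 0 higher, against 10.7% and 9.69% of all probe sets. In 14 probe sets every CPC array lay below every Ctl array, a pattern shared by 11.8% of all probe sets. The median CPC minus Ctl difference was -3.64 log2 units over the member probe sets and 0.15 over all probe sets. With 1 probe set per gene, the one with the highest mean over the 6 arrays, 5 of 9 genes were lower (Pdha1, Dld, Pdk1, Pdk2 and Pdk4) against 4.47% of 20677 genes. At an unadjusted p under 0.05, 8 of the 9 genes were lower and 0 higher, against 10.2% and 11.0% of all genes. The count of 5 genes became 2 without Ctl 1 or Ctl 3, 3 without Ctl 2, and 6 without CPC 2. With 1 Ctl array left out, the difference ran from -4.34 to -4.23 log2 units for Pdha1, -5.79 to -5.61 for Dld and -5.25 to -5.08 for Pdk4. The Ctl arrays nearly coincided for these genes, so leaving 1 out could move the difference little. With 1 CPC array left out, it spread more widely. It then ran from -5.07 to -3.37 for Pdha1, -6.80 to -5.07 for Dld and -6.01 to -4.46 for Pdk4.

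**Figure D1:**
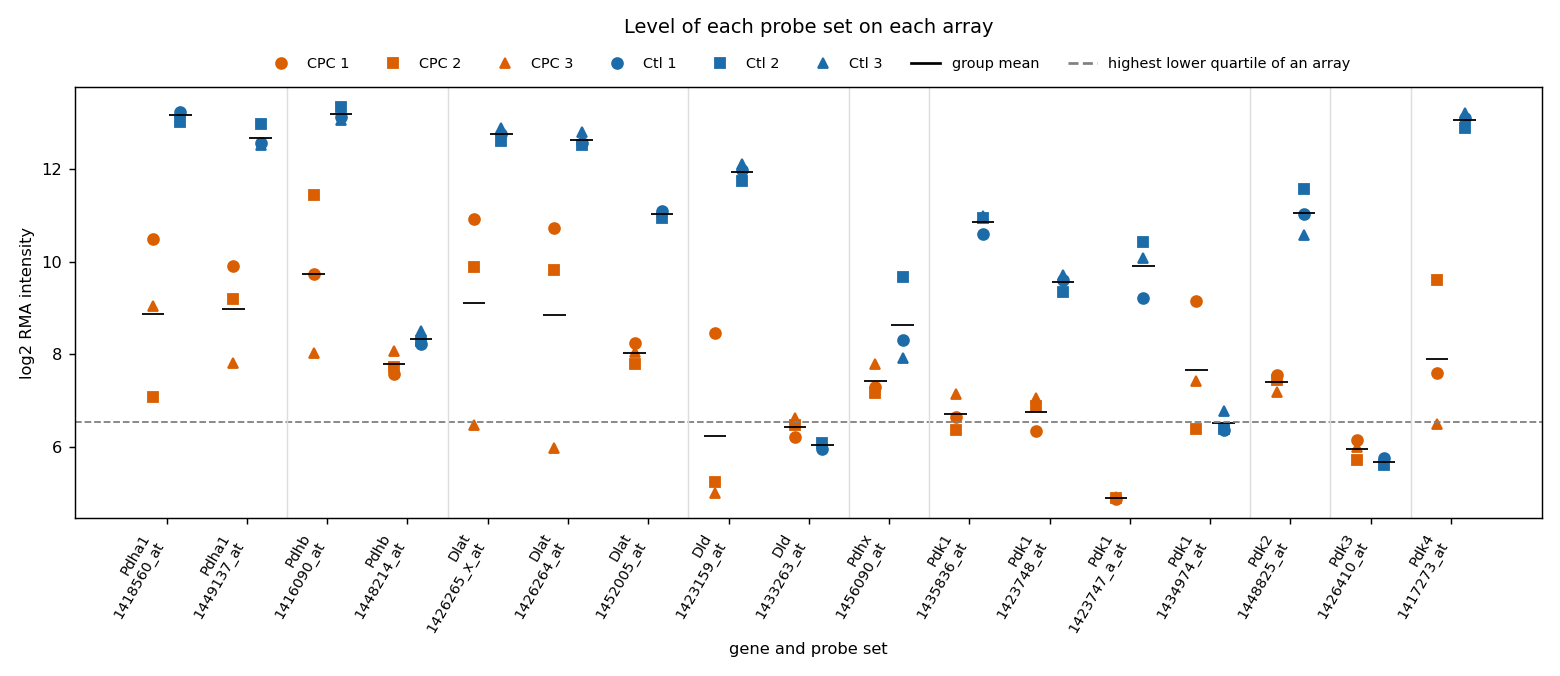
Level of each of the 17 member probe sets on each array (y axis, log2 RMA intensity), with CPC arrays in orange, Ctl arrays in blue and a bar at each group mean of 3 arrays; the dashed line is the highest lower quartile of an array, 6.55. Pdha1, Dlat, Dld, Pdk1, Pdk2 and Pdk4 each have at least 1 probe set with widely separated groups, and Pdk3 lies below the dashed line on all 6 arrays.

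The E1 alpha subunit Pdha1, whose phosphorylation sets the activity of the complex, was lower by both of its probe sets. Probe set 1418560_at read 10.49, 7.09 and 9.05 log2 units on CPC 1, CPC 2 and CPC 3, and 13.21, 13.01 and 13.22 on Ctl 1, Ctl 2 and Ctl 3. Every CPC array was below every Ctl array, and the CPC arrays spread over 3.41 log2 units where the Ctl arrays nearly coincided. The difference was -4.27 (SE 0.81, adjusted p = 0.037, limma), a 19.2-fold lower mean (8.88 ± 1.71 against 13.15 ± 0.12, SD, n = 3 each). This call was lost without CPC 3, Ctl 1, Ctl 2 or Ctl 3, with adjusted p values up to 0.143. The other probe set, 1449137_at, read 9.91, 9.20 and 7.82 on the CPC arrays and 12.55, 12.96 and 12.50 on the Ctl arrays. Its difference of -3.70 (SE 0.53, adjusted p = 0.0131) corresponds to a 13.0-fold lower mean, and it missed the threshold without Ctl 1 or Ctl 3. The pair of probe sets placed a different CPC array lowest, CPC 2 for the first and CPC 3 for the second.

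Pdhb, the E1 beta subunit that forms the catalytic heterotetramer with Pdha1, lay lower on each CPC array but did not pass. Probe set 1416090_at read 9.74, 11.44 and 8.03 on the CPC arrays and 13.12, 13.33 and 13.05 on the Ctl arrays. The groups did not overlap, and the difference was -3.43 (SE 0.81, adjusted p = 0.0751). It passed without CPC 2, the highest of the CPC arrays, at -4.28 (adjusted p = 0.013). The second probe set, 1448214_at, read 7.57, 7.73 and 8.07 against 8.23, 8.28 and 8.50, a difference of -0.55 (adjusted p = 0.192). Averaged over its probe sets, Pdhb was lower by the same test (-1.99, adjusted p = 0.0217).

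Dlat, the E2 acetyltransferase around which the complex assembles, had 3 probe sets that agreed in direction and differed in precision. Probe set 1452005_at read 8.24, 7.80 and 8.05 on the CPC arrays against 11.09, 10.93 and 11.06 on the Ctl arrays. Both groups were tight here, and the difference of -3.00 (SE 0.17, adjusted p = 0.000527, 8.0-fold) passed under all 12 alternatives run. The brightest probe set, 1426265_x_at, read 10.91, 9.89 and 6.49 on the CPC arrays against 12.74, 12.59 and 12.88. CPC 3 lay far below the other CPC arrays, and the difference of -3.64 (SE 1.09) had an adjusted p of 0.139. Probe set 1426264_at showed the same order, 10.73, 9.81 and 5.99 against 12.56, 12.50 and 12.80, with a difference of -3.77 (adjusted p = 0.153). Without CPC 3 both passed at smaller differences, -2.33 (adjusted p = 0.0246) and -2.34 (adjusted p = 0.0202).

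Dld, the E3 flavoprotein that also serves the 2-oxoglutarate and branched-chain keto acid dehydrogenases, was lower by its brighter probe set. Probe set 1423159_at read 8.47, 5.25 and 5.01 on the CPC arrays and 11.97, 11.74 and 12.09 on the Ctl arrays. CPC 2 and CPC 3 were at or under 6.55 log2 units, the highest lower quartile of an array, which serves here as the background level: an array at or under it is set to it before a fold is taken, and the fold is then a lower bound. Dld was at least 26.7-fold lower (difference -5.69, SE 0.91, adjusted p = 0.0205), and the call was lost without CPC 3 or any single Ctl array (adjusted p up to 0.0923). The second probe set, 1433263_at, was near that level on all arrays, at 6.22, 6.47 and 6.64 against 5.96, 6.09 and 6.07. Its CPC values were all above its Ctl values, a pattern found in 19.7% of all probe sets, and the difference of 0.40 did not pass (adjusted p = 0.253).

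Pdhx, the E3-binding protein, read 7.29, 7.16 and 7.80 on the CPC arrays and 8.32, 9.66 and 7.92 on the Ctl arrays with its single probe set 1456090_at. The groups did not overlap, but CPC 3 and Ctl 3 were close, and the difference of -1.22 (SE 0.47, adjusted p = 0.224) did not pass. Its 95% confidence interval ran from -2.36 to -0.07 log2 units before adjustment.

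**Figure D2:**
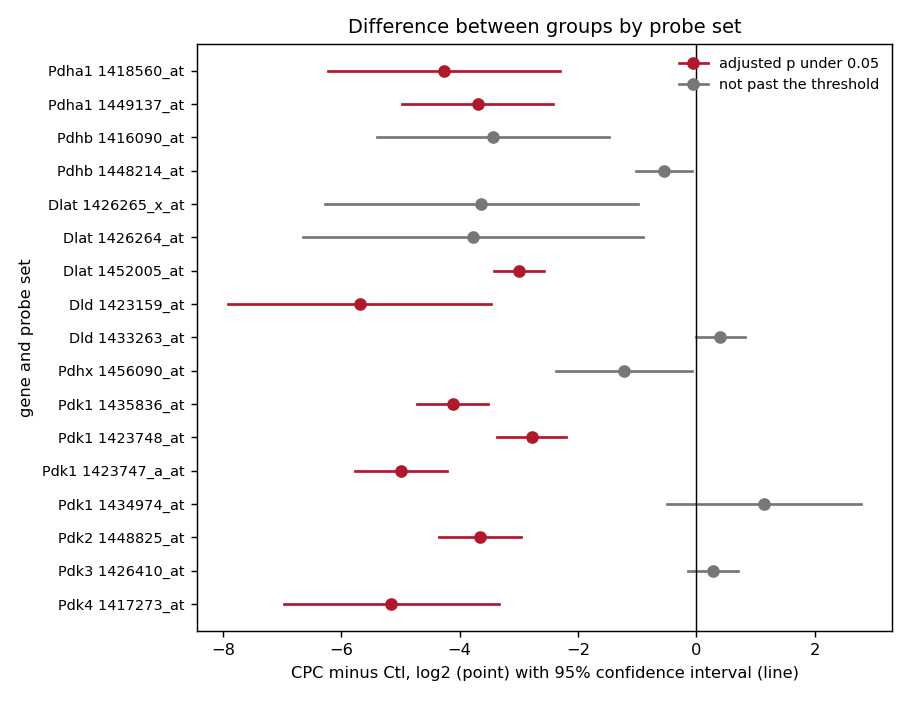
CPC minus Ctl difference of each member probe set (x axis, log2 units) with its 95% confidence interval from limma, 3 arrays per group; red marks an adjusted p under 0.05 and gray a value that did not pass. The 9 red probe sets all lie left of 0, Dlat 1452005_at has the narrowest interval among them, and Pdhx is the closest to 0 of the E1, E2 and E3-binding genes read by their brightest probe set.

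Of the 4 kinases, 3 were lower and Pdk3 was at background, and the DNA upstream of each is shown before their values so that the members that moved can be set beside the one that did not pass. The windows are the 250 bases before the most upstream annotated start, from RefSeq on GRCm38.p6, read 5′ to 3′ along the gene's own strand. They lie at chr2:71872974-71873223 (plus strand) for Pdk1, chr11:95041372-95041621 (minus) for Pdk2, chrX:93832151-93832400 (minus) for Pdk3 and chr6:5496279-5496528 (minus) for Pdk4. Capitals mark a CCAAT box (CCAAT, or ATTGG for the opposite strand) or a GC box (GGGCGG, or CCGCCC for the opposite strand), letters recognized by the general promoter factors NF-Y and Sp1.
Pdk1: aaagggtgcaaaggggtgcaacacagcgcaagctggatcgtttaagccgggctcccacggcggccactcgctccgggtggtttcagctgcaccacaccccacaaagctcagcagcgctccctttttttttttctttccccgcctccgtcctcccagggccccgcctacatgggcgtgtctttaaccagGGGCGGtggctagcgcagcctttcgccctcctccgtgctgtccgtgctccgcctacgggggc
Pdk2: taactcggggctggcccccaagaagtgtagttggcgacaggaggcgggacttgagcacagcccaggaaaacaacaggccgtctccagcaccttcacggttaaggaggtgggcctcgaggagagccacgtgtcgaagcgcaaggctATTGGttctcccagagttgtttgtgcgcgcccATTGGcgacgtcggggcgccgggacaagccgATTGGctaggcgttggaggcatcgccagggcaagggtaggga
Pdk3: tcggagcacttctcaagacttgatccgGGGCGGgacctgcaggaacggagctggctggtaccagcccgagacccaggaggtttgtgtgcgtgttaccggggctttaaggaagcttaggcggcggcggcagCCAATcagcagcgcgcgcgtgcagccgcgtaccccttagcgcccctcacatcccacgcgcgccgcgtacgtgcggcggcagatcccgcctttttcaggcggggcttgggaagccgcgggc
Pdk4: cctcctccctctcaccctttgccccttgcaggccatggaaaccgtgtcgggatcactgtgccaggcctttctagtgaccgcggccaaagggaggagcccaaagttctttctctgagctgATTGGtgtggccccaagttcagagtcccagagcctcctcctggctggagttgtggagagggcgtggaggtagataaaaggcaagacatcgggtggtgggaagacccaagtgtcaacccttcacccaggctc
Pdk1 carried a GC box 62 bases before its start and no CCAAT box. Pdk2 carried 3 CCAAT boxes, 105, 73 and 42 bases before the start, all on the opposite strand. Pdk3 held a GC box at 223 and a CCAAT box at 120 bases, and Pdk4 a single CCAAT box at 131. Over the 11 windows of the 9 members (Pdk1 and Pdk2 have 2 annotated starts each), 5 held a CCAAT box and 5 a GC box, against 33.8% and 32.7% of all 32851 windows of this length. The estrogen-related receptor element, searched as AAGGTCA on both strands, was in 0 of the 11 windows and in 4.1% of all windows. These matches describe letters only.

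Pdk1, a kinase also known as a target of the hypoxia factor Hif1a, was lower by 3 of its 4 probe sets. The brightest, 1435836_at, read 6.65, 6.38 and 7.15 on the CPC arrays and 10.60, 10.94 and 10.98 on the Ctl arrays. Pdk1 was low on every CPC array with little spread, CPC 2 was under the background level, and the gene was at least 16.7-fold below the Ctl mean (difference -4.12, SE 0.25, adjusted p = 0.000576). Probe set 1423748_at read 6.34, 6.89 and 7.07 against 9.60, 9.34 and 9.71, with CPC 1 under the background level, and was at least 6.55-fold lower (-2.78, adjusted p = 0.00211). For 1423747_a_at the CPC values were 4.89, 4.91 and 4.93 and the Ctl values 9.21, 10.42 and 10.08. All 3 CPC arrays were under the background level there, and the fold was at least 10.2 (difference -4.99, adjusted p = 0.000692). The fourth, 1434974_at, departed from the rest, with 9.16, 6.39 and 7.43 against 6.38, 6.39 and 6.79. Its groups overlapped and the difference of 1.14 did not pass (adjusted p = 0.371), with CPC 1 alone well above the others. The 3 lower probe sets passed under every alternative run.

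Pdk2, a broadly expressed kinase, had the smallest range over the CPC arrays among the member genes that were lower. Its probe set 1448825_at read 7.56, 7.44 and 7.18 on the CPC arrays and 11.03, 11.56 and 10.57 on the Ctl arrays. That range was 0.38 log2 units, and the groups were far apart. Pdk2 was 12.6-fold lower (difference -3.66, SE 0.28, adjusted p = 0.00133) and passed under all 12 alternatives run.

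Pdk3 was at background in both groups. Probe set 1426410_at read 6.16, 5.73 and 6.0 on the CPC arrays and 5.77, 5.61 and 5.67 on the Ctl arrays, all at or under 6.55. The groups overlapped, and with both at background no fold is given (difference 0.28, 95% interval -0.14 to 0.70, adjusted p = 0.384).

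Pdk4 was lower on every CPC array. Its probe set 1417273_at read 7.59, 9.61 and 6.51 on the CPC arrays and 13.10, 12.87 and 13.20 on the Ctl arrays. The Ctl arrays were uniformly high, the CPC arrays spread over 3.10 log2 units, and CPC 3 was under the background level. Pdk4 was at least 35.3-fold lower (difference -5.16, SE 0.75, adjusted p = 0.014). The call was lost without Ctl 1 or Ctl 3 (adjusted p up to 0.0694).

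The CPC arrays did not rank the members alike. Relative to the Ctl mean of the same probe set, Pdha1 stood at -2.65, -6.06 and -4.09 log2 units on CPC 1, CPC 2 and CPC 3, whereas Dlat stood at -1.82, -2.84 and -6.25. By the brightest probe set per gene, CPC 3 was lowest for Pdhb, Dlat, Dld, Pdk2 and Pdk4, and CPC 2 for Pdha1, Pdhx, Pdk1 and Pdk3. The CPC standard deviations of Pdha1, Pdhb, Dlat, Dld and Pdk4 stood at percentiles 95.8, 95.7, 98.9, 97.4 and 94.7 of all genes, while those of Pdk1 and Pdk2 stood at 61.5 and 22.2. The median gene had a standard deviation of 0.32 over the CPC arrays and 0.19 over the Ctl arrays. The CPC arrays also resembled each other less over all probe sets (Pearson r 0.792 to 0.858) than the Ctl arrays did (0.933 to 0.971).

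**Figure D3:**
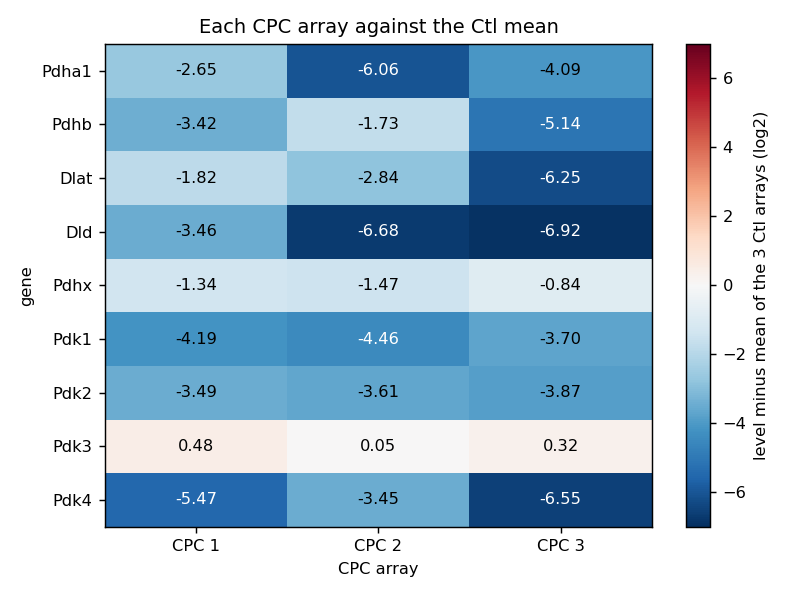
Level of each member gene on each CPC array minus the mean of its 3 Ctl arrays (color and printed value, log2 units; brightest probe set per gene). Pdk1 and Pdk2 are even across the CPC arrays, whereas Pdha1 ranges from -2.65 to -6.06 and Dlat from -1.82 to -6.25.

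To ask whether a member changed by another amount than Pdha1, the log2 value of Pdha1 was subtracted from that of each other member on the same array, which cancels a shift common to the array. An exact two-sided permutation test of 3 against 3 arrays cannot go below p = 0.1, so no difference could pass. Pdhx lay less far below its Ctl mean than Pdha1 did on every CPC array (3.05 log2 units, SE 1.12), at the smallest possible exact p of 0.1 (0.267 adjusted over 8). The value for Pdk3 (4.55, SE 0.86, exact permutation p = 0.1) restates the difference of Pdha1, since Pdk3 was at background on all 6 arrays. For Dld the difference was -1.42 (SE 0.71, exact permutation p = 0.1), but it turned to 1.34 when the probe sets of each gene were averaged. Pdhb (0.83), Dlat (0.63), Pdk1 (0.15), Pdk2 (0.61) and Pdk4 (-0.89) had overlapping groups and exact permutation p-values from 0.7 to 1.0, and without CPC 2 the first 4 of these turned negative. With the probe sets of each gene averaged, the groups no longer overlapped for Pdhb (1.99) and Pdk1 (1.29), each at an exact permutation p of 0.1. Those of Dlat (0.51), Pdk2 (0.32) and Pdk4 (-1.18) still overlapped.

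The enzymes and carriers around the complex were lower in part. Of 49 measured genes in 6 lists outside the members, 20 were lower and 0 higher, with a median difference of -2.07, against 4.47% and 1.15% of all genes and a median of 0.19. The phosphatases that reactivate the complex had 2 of 3 lower. Pdp1, the calcium-stimulated catalytic subunit, was at 4.95, 5.18 and 5.55 on the CPC arrays and 9.60, 8.66 and 9.54 on the Ctl arrays. It was at least 6.55-fold lower (difference -4.04, adjusted p = 0.00133). Pdpr, the regulatory subunit of the phosphatase, was 5.52-fold lower (-2.46, adjusted p = 0.00317). Pdp2 had a difference of -0.23 by its brightest probe set (adjusted p = 0.709, limma). Its other probe set was at -1.63 and did not pass either (adjusted p = 0.0588, limma). With the probe sets of each gene averaged, 3 of 3 phosphatase genes were lower. Pdpr, Pdp2, Mpc2, Ldha, Bckdhb, Ogdh, Dlst and Foxo3 stand outside the rule for named genes and were picked after their values were seen.

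In the list of pyruvate entry and other fates, 2 of 8 genes were lower and the median difference was -1.31. At an unadjusted p under 0.05 by limma, 4 were lower and 1 was higher, against 10.2% and 11.0% of all genes. The higher one was Ldha (0.53, adjusted p = 0.229). Ldhb, the lactate dehydrogenase subunit typical of heart, was at 9.42, 8.73 and 8.82 on the CPC arrays and 13.82, 13.80 and 13.63 on the Ctl arrays, 27.1-fold lower (adjusted p = 0.000281). Mpc2, a subunit of the carrier that brings pyruvate into mitochondria, was 15.4-fold lower (-3.95, adjusted p = 0.0469), and the count in this list was 1 when any 1 Ctl array was left out. The lipoylation list, whose enzymes attach or remove the lipoyl group of Dlat, had 0 of 4 past the threshold by limma (unadjusted p under 0.05 in 1, which was higher). Its smallest p belonged to Lipt1, a lipoyltransferase, at 9.27, 9.97 and 7.70 against 7.64, 7.40 and 7.43 (difference 1.49, adjusted p = 0.212).

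The sister complexes share Dld and the same architecture, and 4 of 7 measured genes were lower (median -2.67). Ppm1k, the phosphatase that activates branched-chain keto acid dehydrogenase, was 15.0-fold lower (-3.91, adjusted p = 0.0061). Bckdhb, an E1 subunit of that complex, was at least 6.02-fold lower with 2 CPC arrays under the background level. Ogdh and Dlst, the E1 and E2 of 2-oxoglutarate dehydrogenase, were 6.34-fold and 3.08-fold lower. The other Dlst probe sets did not pass (-0.10, 0.09 and -0.79). In the TCA cycle list, which also holds Ogdh and Dlst, 12 of 17 genes were lower and the median was -2.84. By the brightest probe set per gene, every CPC array lay below every Ctl array for all 17, against 11.0% of all genes. Some other probe sets of these genes had differences above 0, none past the threshold. Sdha, the flavoprotein of succinate dehydrogenase, had the largest difference, from 13.81, 13.90 and 13.99 on the Ctl arrays to 9.17, 7.77 and 8.81 on the CPC arrays (-5.32, 39.8-fold, adjusted p = 0.000904). Without Ctl 1 or Ctl 3 the count of lower genes in this list was 7 and 6.

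Among 12 regulators of these genes, 2 were lower (median -1.30), a count of 1 without Ctl 1 or Ctl 3 and of 4 without CPC 2 or with probe sets averaged. Ppargc1a, the coactivator that drives mitochondrial gene expression, was at 7.27, 8.13 and 8.15 on the CPC arrays and 11.33, 11.37 and 11.33 on the Ctl arrays, 11.2-fold lower (adjusted p = 0.00133). Foxo3, a forkhead factor, was 3.82-fold lower (-1.93, adjusted p = 0.0119).

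**Figure D4:**
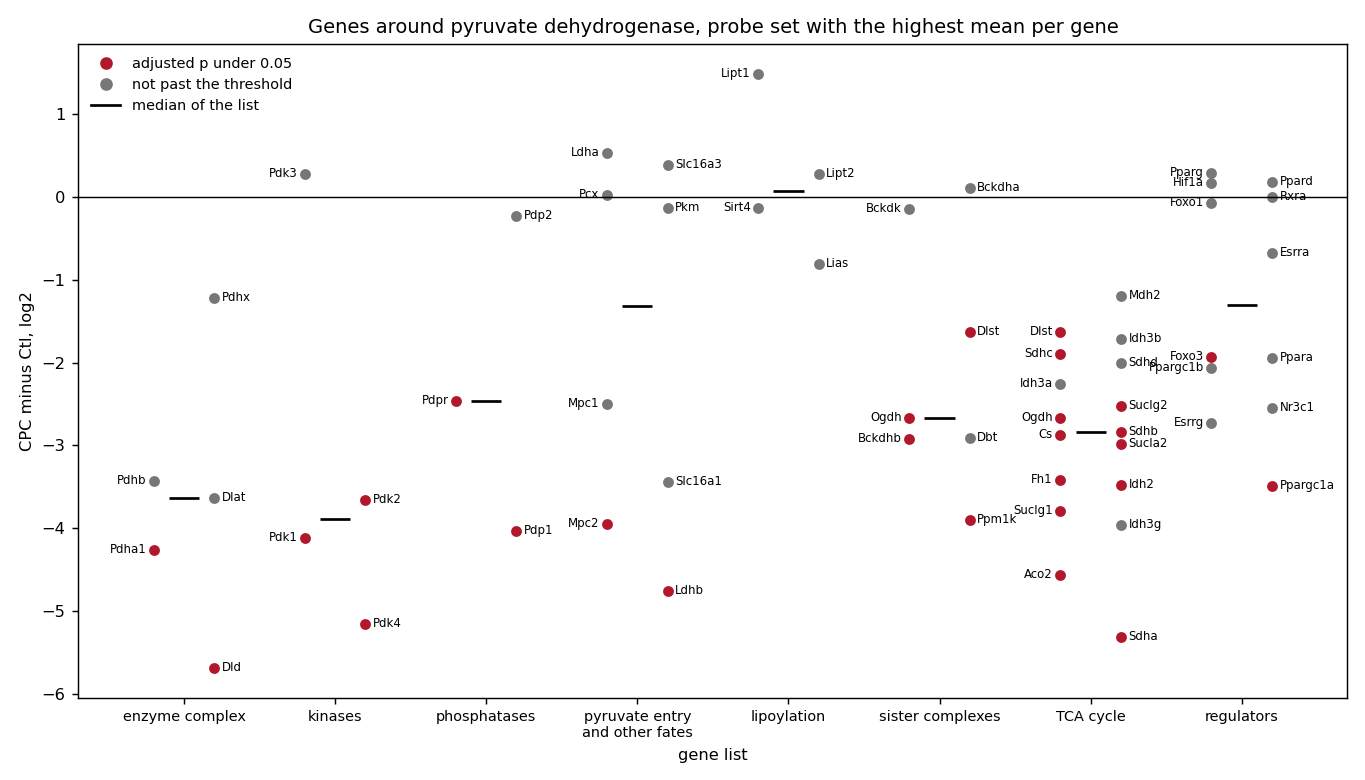
CPC minus Ctl difference (y axis, log2 units) of each member and each listed gene around the complex, 1 point per gene by its brightest probe set and a bar at the list median; red marks an adjusted p under 0.05. All red points lie below 0, the TCA cycle list has 12 of 17 in red and the lipoylation list has none.

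The genes with the profile nearest to Pdha1 and to each kinase were found by the Euclidean distance between log2 values over the 6 arrays, after each gene's mean was removed. These are descriptions over 6 arrays that share the group difference. Nearest to Pdha1 were Mpc2 (distance 0.64), Zyg11b (0.89) and Htatsf1 (1.06), where the median over all other genes was 6.02. Pdk1 lay nearest to Kcnj3, a potassium channel subunit (0.16), Fhod3, a sarcomeric formin (0.39), and Pam, a peptide-amidating enzyme (0.47), with a median of 5.34 over all other genes. The neighbors of Pdk2 were the muscle glycolytic enzymes Pfkm (0.48) and Eno3 (0.48), and Rmnd5a (0.49), with a median of 4.82. Pdk4 was nearest to Acsl1, which activates long-chain fatty acids (1.21), Fabp4, a fatty acid carrier (1.23), and Etfdh, which passes electrons from fatty acid oxidation to the respiratory chain (1.27), with a median of 6.99. For Pdk3, at background on all arrays, the nearest were Dzip1l (0.09), 4930519P11Rik (0.11) and Ess2 (0.12), with a median of 0.81.

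CM markers moved with the groups, whereas markers of other cell types and of RNA quality did so only in part. All 9 CM markers were lower on the CPC arrays (median -6.41), against 4.47% of all genes. Their mean level was 7.05 to 7.64 on the CPC arrays and 13.54 to 13.64 on the Ctl arrays. The Ctl arrays thus carried the markers of their label, and the CPC arrays held them near the array medians of 7.32 to 7.47. Fibroblast markers had 2 of 8 higher, Col1a1 (3.33) and Col1a2 (2.87), against 1.15% of all genes, with list means of 9.35 to 9.81 against 7.75 to 8.64. At an unadjusted p under 0.05, 4 of the 8 were higher, and the list median was 1.13. Col3a1 (0.45), Pdgfra (-0.05) and Postn (-0.13) had overlapping groups and did not pass. In the other lists, 0 of 7 endothelial and 0 of 6 macrophage markers passed by limma (0 and 1 at an unadjusted p under 0.05). Of 6 smooth muscle or pericyte markers 1, Rgs5, was lower. In that last list 3 others, Acta2 (2.11), Tagln (2.46) and Pdgfrb (0.83), did not pass but had an unadjusted p under 0.05 with every CPC array above every Ctl array, and the list median was 0.51. Of all genes, 11.0% were higher at an unadjusted p under 0.05. In 19.7% of all probe sets every CPC array lay above every Ctl array. List means were 7.53 to 7.86 against 7.55 to 8.48 for endothelial, 7.72 to 7.93 against 7.53 to 7.60 for macrophage, and 8.83 to 9.35 against 8.34 to 9.19 for smooth muscle or pericyte markers. The 3′ minus 5′ signal of the Gapdh control probe sets was 2.09, 2.55 and 3.53 log2 units on the CPC arrays. On the Ctl arrays it was 2.12, 1.77 and 2.21, so the groups overlapped. CPC 3, where this signal was highest, was the lowest CPC array for Pdhb, Dlat, Dld, Pdk2 and Pdk4 by their brightest probe sets. It was also the lowest for Pdha1 1449137_at and Dlat 1426264_at. It was the middle one for Pdha1 1418560_at, Dlat 1452005_at, Pdk1 1434974_at and Pdk3. For Pdhx, the other Pdk1 probe sets, Pdhb 1448214_at and Dld 1433263_at it was the highest. For Actb the 3′ minus 5′ signal was 0.0022, 0.05 and 0.37 on the CPC arrays and -0.85, -0.41 and -0.54 on the Ctl arrays. Every CPC array thus lay above every Ctl array for Actb. The part of these values in the member differences was not tested.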

How the data were processed

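RNA from 3 CPC and 3 Ctl arrays was analyzed. The authors deposited 1 table of log2 intensities for 45101 probe sets, normalized by RMA in Partek per the labels (versions not given in the sources used here). They also deposited fold change scores and p-values of their own comparison. Those scores and p-values were not used, only that table's annotation. RMA summarizes probes and quantile-normalizes arrays, which compresses low signals and hides shifts common to an array. The deposited log2 values were tested as given, leaving out 64 control probe sets, with limma 3.58.1 in R 4.3.3 (lmFit, eBayes, group only, two-sided), with Benjamini-Hochberg adjustment over 45037 probe sets and a threshold of 0.05. The script was tested on simulated data. A gene was read from its brightest probe set among 38011 that name 1 gene (20677 genes; 1280 name several and 5746 none). Of the symbols, 3174 were updated through Entrez IDs. Gcsh had no probe set. Folds where an array of the lower group was at or under 6.55, the highest lower quartile of an array, are lower bounds, with such arrays set to that level. Array medians ran from 7.32 to 7.47, and the number of arrays limits precision. Named genes are all members, the largest passing rise and fall of each list (or its smallest p) and 3 nearest profiles. Members and lists were chosen with earlier results of these data known. The alternatives were array median centering, array weights, a replicate block, trend and robust variance, filters on probe sets, averaging probe sets, a threshold of 0.01 and leaving out each array.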

Additional observations from a re-analysis of the deposited data

How the results depend on the processing

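With array weights, which favored CPC 2 (weight 5.92) over CPC 3 (0.23), 14 member probe sets were lower and 1 higher (Dld 1433263_at), 8 member genes were lower, and 1 gene around the complex was higher. At an adjusted p under 0.01 these counts of lower features were 5 probe sets, 2 member genes and 11 surrounding genes. Leaving out 1 array gave 5 to 10 lower member probe sets, 2 to 6 lower member genes, 12 to 24 lower and 0 to 1 higher surrounding genes. The fewest came without Ctl 1 or Ctl 3 and the 1 higher gene without CPC 3. The arrays share only a number between groups, and same-numbered arrays did not deviate together (r -0.05, -0.01 and -0.11). With a replicate block 8 member probe sets, 4 member genes and 18 surrounding genes were lower, and Pdha1 1418560_at had an adjusted p of 0.0552. The shares of all features called under each of these alternatives are not given here, so these counts cannot be set against them.

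Within-array differences from Pdha1 ranged, leaving out 1 array, from -0.91 to 1.78 for Pdhb, -0.66 to 2.02 for Dlat, -1.82 to -0.72 for Dld, 2.28 to 3.92 for Pdhx, -0.57 to 0.99 for Pdk1, -0.31 to 1.33 for Pdk2, 3.77 to 5.26 for Pdk3 and -2.64 to 0.0735 for Pdk4. Averaging probe sets moved Pdhb to 1.99 and Pdk1 to 1.29, and it turned Dld to 1.34. The averaged CPC minus Ctl difference of Dld was -2.64, since 1433263_at (0.40) entered beside 1423159_at (-5.69), and that of Pdha1 was -3.98. The cause of the other changes was not tested. No member probe set's difference turned sign under any alternative run. Signals near background, such as Pdk3, set a limit on what these arrays could show.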
